A study of Mus musculus with 15 samples.

Results

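Messenger RNA levels were followed for the genes of 3 stretches of the mouse genome, at the far end of chromosome 4, in the middle of chromosome 8 and in the distal part of chromosome 17. The stretches were chosen because the same cell lines showed a shift across many neighbouring genes there. A gene was taken when its listed start lay above 140000000 on chromosome 4, above 80000000 and up to 100000000 on chromosome 8, or above 60000000 on chromosome 17, and when its mean over 11 libraries reached 5 CPM (read counts scaled to library size). Mmp2 and genes whose names begin with Cdh, Eph, Id3 or Wnt were left out. This gave 314 of the 13893 genes listed, with 116 on chromosome 4, 110 on chromosome 8 and 88 on chromosome 17. Another 117 genes of the same stretches did not reach 5 CPM (63, 33 and 21, respectively), and 1 was left out by name.

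All samples came from NMuMG, an epithelial line from normal mouse mammary gland. The first dataset held 11 libraries, 1 per cell line, and every line in it carried an shRNA against PCBP1, an RNA-binding protein. The shPCBP1 group was the unaltered line and 3 CT clones that had received Cas9 without a gene-specific guide (CT 1 to 3). The FAM3C KO group was 3 clones (genotype FAM3C -/-), the LIFR KO group 3 clones (LIFR -/-), and 1 further line was the FAM3C/LIFR double KO. Each KO line was grown from a single colony after CRISPR-Cas9 removed a short piece of coding sequence, so the n of a group counts clones. No source used here says that the KO lines descend from separate parent cells, so n and SD describe lines that may not be independent. The second dataset held 2 shPCBP1 samples and 2 NMuMG controls, which the labels give as untreated and the study calls shSCR. Nothing in the labels says whether the samples of the second dataset came from separate cultures, so its p-values measure the spread between these samples, which may be technical.

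FAM3C is a secreted, cytokine-like protein and LIFR is the receptor of leukemia inhibitory factor, which signals through STAT3. None of the 3 stretches holds Fam3c or Pcbp1 (both on chromosome 6) or Lifr (chromosome 15). Fam3c RNA was at 26.4, 33.9 and 42.9 CPM in the FAM3C KO clones, 42.3 in the double KO and 47.0 to 59.4 in the shPCBP1 lines. Lifr RNA was at 34.9, 29.3 and 14.6 CPM in LIFR KO 1 to 3, 4.36 in the double KO and 25.8 to 40.2 in the shPCBP1 lines, so in LIFR KO 1 and 2 it lay within the shPCBP1 range. In FAM3C KO 1 to 3 Lifr RNA was at 13.5, 10.5 and 19.2 CPM, a range that holds the value of LIFR KO 3. The edit removed only a short piece, so a gene-wide RNA value does not check these genotypes. Pcbp1 was at 14.1 and 14.2 CPM in shPCBP1 and 287 and 312 in shSCR.

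Neighbouring genes usually have their own promoters and can respond to different signals. The 3 stretches hold genes with a mixture of roles. Glycolytic enzyme, G protein and matrix genes lie on chromosome 4, metallothioneins, a transcription factor of the AP-1 family and endoplasmic reticulum chaperones on chromosome 8, and calmodulin, myosin light chain and apoptosis inhibitor genes on chromosome 17. In bulk RNA of this kind, fewer cells carrying a transcript and less transcript per cell cannot be told apart. Only RNA was measured.

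The libraries of LIFR KO 2, LIFR KO 3 and the double KO stood apart from the rest. Across 12581 genes their differences from shPCBP1 followed the GC content of the transcript (Spearman's rho of -0.76, -0.75 and -0.70, against -0.29 to 0.24 in the other 8 libraries), and mitochondrial genes took 7.16% to 8.58% of their values against 3.14% to 4.06% elsewhere. Members on chromosomes 4 and 8 were richer in GC than genes at large (medians of 53.8% and 52.7% against 49.7%), and those on chromosome 17 were poorer (46.6%). Differences are therefore given both as deposited and after a curve on GC content had been subtracted from each library. Of 10 epithelial markers, 6 reached 1 CPM, with summed levels of 2480 to 3190 CPM in shPCBP1, 2010 to 3040 in FAM3C KO, 1230 to 2110 in LIFR KO and 1830 in the double KO. Epcam, Cldn7, Esrp1 and Cldn3 were below 1 CPM or not listed. All 10 mesenchymal markers reached 1 CPM, with sums of 1900 to 3010 CPM over the 11 libraries. Of 10 blood and immune markers, 2 (Cd68 and Cd14) reached 1 CPM, and the list summed to 149 to 170 CPM in shPCBP1, 123 to 171 in FAM3C KO, 95.2 to 177 in LIFR KO and 93.9 in the double KO. Ptprc and Tyrobp were among those below 1 CPM or not listed. The 6 endothelial markers all stayed below 1 CPM or were not listed. What part the GC shift or the marker levels had in the differences below was not tested.

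Differences are log2(CPM + 0.1) minus the mean of the 4 shPCBP1 lines. Because the stretches were chosen from the FAM3C KO clones, LIFR KO 3 and the double KO, the values of these 5 lines against shPCBP1 are given as a description, with no test. All these comparisons share the 4 shPCBP1 lines.

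Gene by gene, the shifted run of genes did not coincide with the limits used to choose the members. The run with one common level was located from the mean of the FAM3C KO clones along each chromosome, after the values had been seen, and is called the block here. On chromosome 4 it began between Lzic (149485229 to 149496668, GRCm38) and Clstn1 (149586468 to 149648899), went to the last gene and held 58 genes, all of them members. The other 58 members on chromosome 4 lay before it. On chromosome 8 it ran from Sin3b (72723285 to 72758201) to Ciao2b (104639838 to 104641965) and held 135 genes, of which all 110 members were part. On chromosome 17 it ran from Sult1c2 (53829637 to 53846339) to a point before Msh6 (87975062 to 87990892) and held 124 genes, including 81 members, with 7 members beyond its end. The blocks thus held 249 of the 314 members.

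Inside the blocks the FAM3C KO clones were higher on chromosomes 4 and 17 and lower on chromosome 8, by a similar proportion for many of the genes. The median FAM3C KO difference of the block members was 0.86 on chromosome 4 (1.82-fold, quartiles 0.80 and 0.94), -0.53 on chromosome 8 (0.691-fold, quartiles -0.65 and -0.41) and 0.46 on chromosome 17 (1.37-fold, quartiles 0.36 and 0.54). By clone, the block medians were 0.89, 0.87 and 0.85 on chromosome 4, -0.53, -0.56 and -0.51 on chromosome 8, and 0.45, 0.44 and 0.50 on chromosome 17. The 3 clones were thus close to each other in every block. The differences ranged from 0.54 to 1.44 on chromosome 4, from -1.19 to 0.03 on chromosome 8 and from -0.04 to 1.23 on chromosome 17. Every FAM3C KO clone was above every shPCBP1 line for 56 of the 58 block members on chromosome 4 and 61 of the 81 on chromosome 17, where 10.1% of the 10110 genes at 5 CPM or more showed this. Every clone was below every shPCBP1 line for 88 of the 110 on chromosome 8, where 13.6% of those genes did. The stretches were picked for this contrast, so nothing is read from these counts.

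LIFR KO 3 and the double KO carried the same levels once the GC curve had been removed. On chromosome 4, the deposited block medians of LIFR KO 3 and the double KO were 0.29 and 0.26, and the GC-corrected ones 0.88 and 0.86, beside 0.89, 0.93 and 0.88 in the FAM3C KO clones. On chromosome 8 the deposited medians of -0.84 and -0.95 became -0.53 in both, beside -0.53, -0.53 and -0.52. On chromosome 17 the deposited medians were 0.48 and 0.45 and the corrected ones 0.48 and 0.43, beside 0.46, 0.40 and 0.46. The correction thus moved the values of LIFR KO 3 and the double KO most where the members were rich in GC.

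LIFR KO 1 and 2 did not have these levels. The GC-corrected block medians of LIFR KO 1 and 2 were -0.08 and -0.04 on chromosome 4, 0.06 and 0.03 on chromosome 8, and -0.07 and -0.08 on chromosome 17. As deposited, LIFR KO 2 was at -0.66, -0.37 and -0.07. The 3 LIFR KO clones therefore did not move together in any of the 3 blocks, and a mean over them describes none of them.

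On chromosomes 4 and 8 the unaltered shPCBP1 line lay between the CT clones and the FAM3C KO clones, and on chromosome 17 it was close to CT 3. Its GC-corrected block median was 0.28 on chromosome 4, where CT 1 to 3 were at -0.08, -0.11 and -0.07. It was -0.20 on chromosome 8, where the CT clones were at 0.09, 0.07 and 0.07, and 0.10 on chromosome 17, where they were at -0.09, -0.09 and 0.08. The unaltered line was above every CT clone for 51 of 58 block members on chromosome 4 and 20 of 81 on chromosome 17 (16.9% of the 10110 genes), and below every CT clone for 91 of 110 on chromosome 8 (26.4%). The unaltered line was between every CT clone and every FAM3C KO clone for 49, 79 and 16 block members on chromosomes 4, 8 and 17. The share of all genes with this order is not given, and the FAM3C KO values chose the stretches. Nothing is therefore read from these 3 counts. On chromosome 17 CT 3 stood apart from CT 1 and 2 as deposited, at 0.15 in the block against -0.09 and -0.13, and at 0.18 over the rest of the chromosome. The 4 shPCBP1 lines were thus not alike in any block, and the baseline of every difference contains them all.

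**Figure D1:**
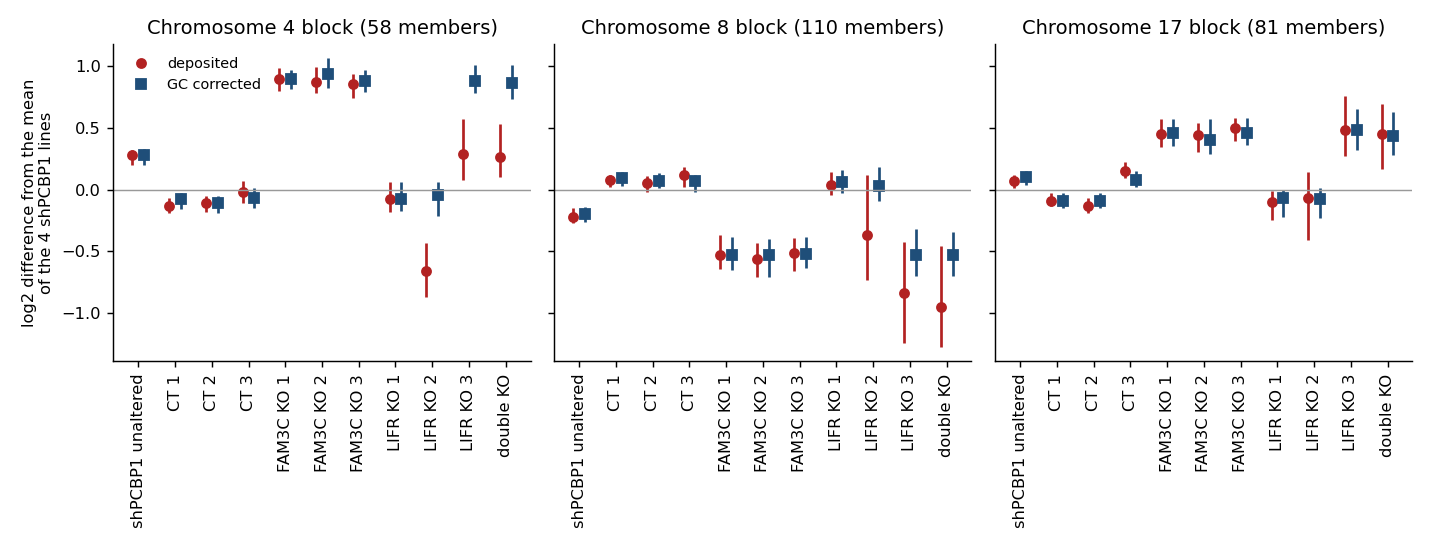
Median log2 difference (points) and quartiles (bars) of the block members in each of the 11 libraries, as deposited (circles) and after GC correction (squares), with the mean of the 4 shPCBP1 lines at 0. FAM3C KO 1 to 3, LIFR KO 3 and the double KO share one level in each block after correction, LIFR KO 1 and 2 sit near 0, and the unaltered line lies between on chromosomes 4 and 8 and close to CT 3 on chromosome 17.

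The edges were placed by a fit to the FAM3C KO means, so a step between the genes flanking an edge is a description. On chromosomes 4 and 8 the flanking genes were at unlike levels. On chromosome 4, Lzic differed by -0.06, 0.09 and -0.12 in FAM3C KO 1 to 3, and its neighbour Clstn1, which encodes the cadherin-related protein calsyntenin 1, by 0.94, 0.74 and 1.01. At the start of the chromosome 8 block, Smim7 differed by -0.20, -0.23 and -0.08 and Sin3b, a co-repressor subunit, by -0.63, -0.76 and -0.68. At its end, Ciao2b differed by -0.71, -0.61 and -0.51 and Cbfb, a RUNX partner, by -0.02, 0.37 and 0.22. The start on chromosome 17 was less clear. Sgo1, a protector of centromeric cohesion, differed by -0.26, -0.26 and -0.16, and Sult1c2, a sulfotransferase, by 0.69, -0.76 and 0.75, with -2.03 and -2.60 in LIFR KO 1 and 2 and 0.72 to -1.03 among the shPCBP1 lines, so this edge rests on the genes after it. At the end on chromosome 17, Msh6, a mismatch repair gene and the first gene beyond the block, differed by -0.27, -0.13 and -0.19 in FAM3C KO 1 to 3, by -0.32 in LIFR KO 3 and by -0.37 in the double KO.

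The limits of the rule itself did not mark the edges. On chromosome 4 the last gene outside, Aldh4a1, and the first member, Arhgef10l, had mean FAM3C KO differences of 0.01 and 0.04. On chromosome 8, Mmaa (outside) and Smad1 (inside) were at -0.55 and -0.15 at the start, and Got2 (inside) and Tk2 (outside) at -0.64 and -0.37 at the end. On chromosome 17, Nudt12 (outside) and Efna5 (inside) were at 0.25 and 0.45. At the minimum of 5 CPM, Prkcz (4.99 CPM, outside) and Smim1 (5.49 CPM, inside) were at 0.81 and 1.07 on chromosome 4, Adcy7 (4.84) and Ccdc102a (5.94) at -0.62 and -0.20 on chromosome 8, and Dync2li1 (3.91) and Rmdn2 (5.74) at 0.60 and 0.71 on chromosome 17. Thap3 (4.69 CPM), Snx20 (4.48) and Camkmt (3.78), also outside, were at 0.75, -1.27 and 0.44, and Fam131c (5.37), Ndrg4 (6.02) and Thumpd2 (5.90), inside, at -0.30, -1.19 and 0.75.

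The block edges were fitted on the FAM3C KO means, so the level of the block genes that the rule left out is a description too. The 25 on chromosome 8 had medians of -0.55, -0.56 and -0.48 in FAM3C KO 1 to 3, and the 43 on chromosome 17 of 0.44, 0.31 and 0.38. The rest of chromosome 4 (499 genes) was at -0.02, -0.04 and 0.00, the rest of chromosome 8 (427 genes) at -0.01, -0.05 and -0.02, and the rest of chromosome 17 (376 genes) at -0.11, -0.15 and -0.12. Among 136 windows of 20 Mb with at least 20 genes, the window from 80 Mb on chromosome 8 had the lowest median FAM3C KO difference (-0.53), followed by -0.16 on chromosome 13. The windows from 140 Mb on chromosome 4 (0.54) and from 80 and 60 Mb on chromosome 17 (0.46 and 0.44) had the highest medians, followed by 0.19 on chromosome 18. The stretches were picked for shifts in these clones, so this ranking followed from the choice and is a description.

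**Figure D2:**
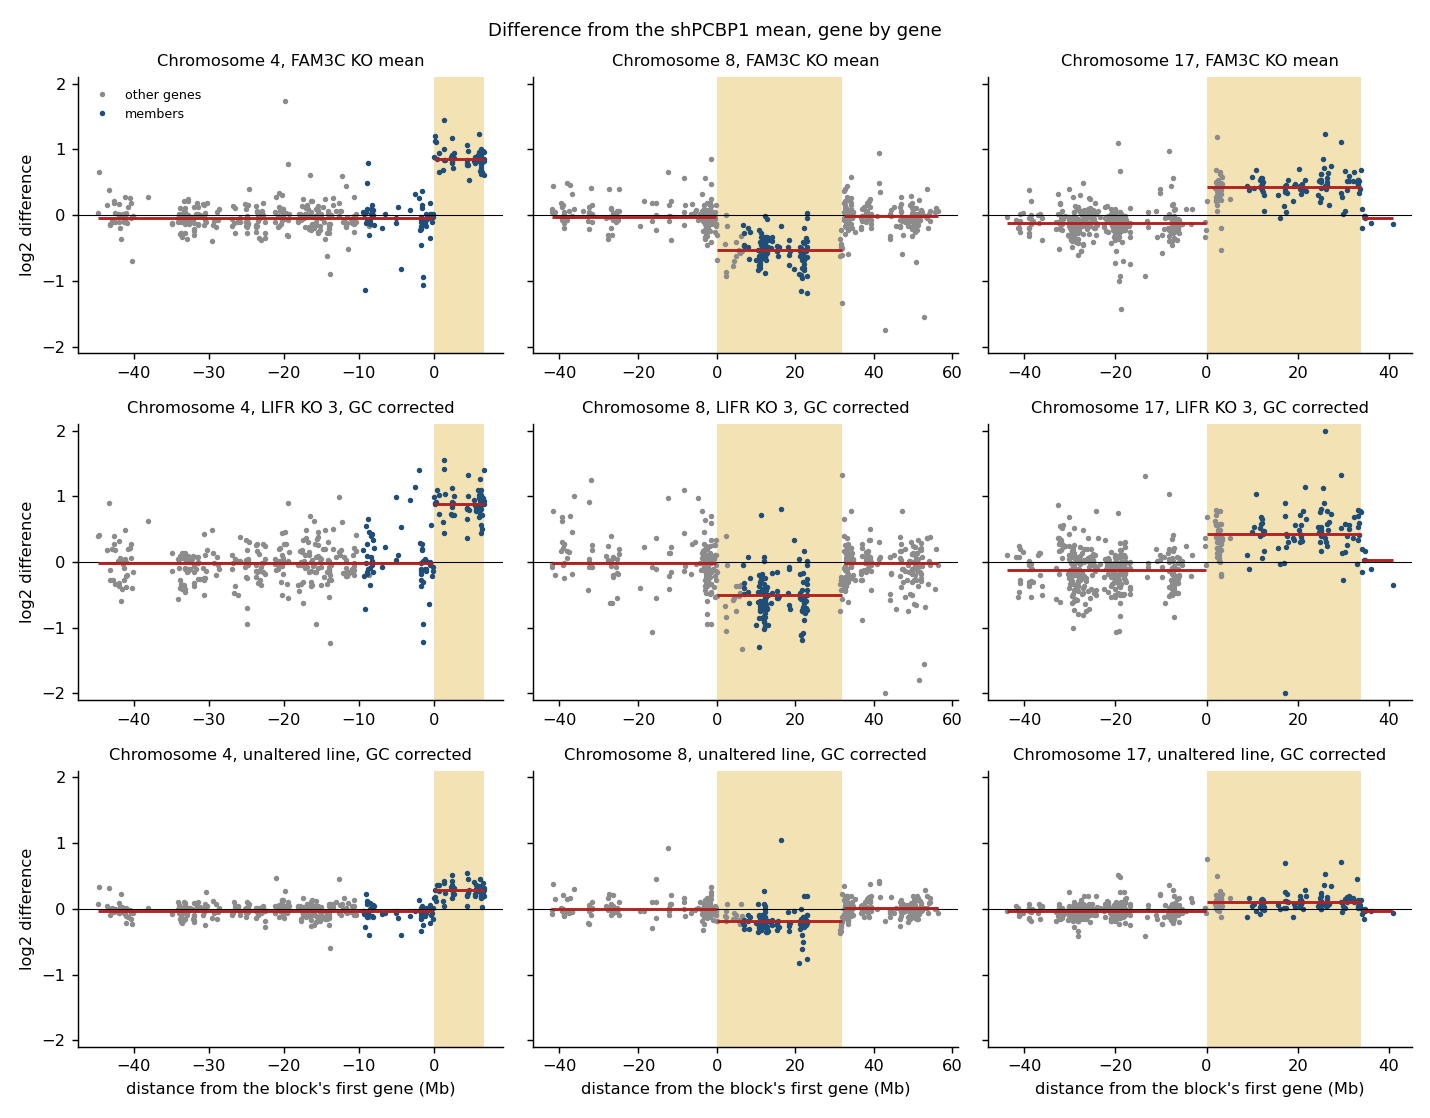
Log2 difference from the shPCBP1 mean for genes at 5 CPM or more on chromosomes 4, 8 and 17. The horizontal axis is the distance in Mb of a gene's listed start from that of the block's first gene. Rows are the mean of FAM3C KO 1 to 3 (top), LIFR KO 3 (middle) and the unaltered shPCBP1 line (bottom). Genes far before the block are not drawn and are not in the median before it. Members are blue, other genes grey, the block is shaded, red lines are medians before, in and after it, and values beyond 2 are drawn at 2. The edges of the shading were fitted to the FAM3C KO means, so the steps of the medians there are a description. The step is smaller in the unaltered line.

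The size of the difference depended little on how strongly a gene was expressed, on its GC content or on its strand. In the lower and upper 50% of block members by mean CPM, the median FAM3C KO difference was 0.84 and 0.88 on chromosome 4, -0.53 and -0.55 on chromosome 8, and 0.50 and 0.44 on chromosome 17. Split by GC content it was 0.87 and 0.86, -0.50 and -0.60, and 0.46 and 0.44. For genes on the plus and minus strands it was 0.86 and 0.85, -0.55 and -0.53, and 0.47 and 0.45. The median SD of a block member among the FAM3C KO clones was 0.08 on chromosome 4, 0.10 on chromosome 8 and 0.09 on chromosome 17, and among the shPCBP1 lines 0.22, 0.18 and 0.16.

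On chromosome 4 the most abundant block members had similar ratios. Eno1 (150236721 to 150248879), the glycolytic enzyme enolase 1, was at 302 CPM in the unaltered line and 220, 222 and 253 in CT 1 to 3, at 471, 509 and 459 in FAM3C KO, at 220 and 133 in LIFR KO 1 and 2, at 298 in LIFR KO 3 and at 271 in the double KO. The FAM3C KO clones were above all others, with a mean of 480 ± 26.0 CPM (SD, n = 3) against 249 ± 38.4 (n = 4) in shPCBP1. The ratio on the log scale, used for every gene below, was 1.94-fold. Gnb1 (155491361 to 155559269), a G protein beta subunit, was at 179, 147, 136 and 141 CPM in the shPCBP1 lines, 283, 279 and 287 in FAM3C KO, 132 and 135 in LIFR KO 1 and 2, 297 in LIFR KO 3 and 272 in the double KO, and its ratio in FAM3C KO was 1.88-fold. Its 5 high and 6 low libraries did not overlap. Agrn (156165290 to 156197488), which encodes the matrix proteoglycan agrin, was at 315, 211, 238 and 204 CPM in the shPCBP1 lines and 430, 383 and 454 in FAM3C KO, a ratio of 1.77-fold. In LIFR KO 3 and the double KO it was at 272 and 277 CPM, below the unaltered line, with GC-corrected differences of 0.89 and 0.92.

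The highest shared differences on chromosome 4 (the median over the 5 lines) were those of Smim1 (1.34), the clock gene Per3 (1.31), the mitochondrial nucleotide carrier Slc25a33 (1.13) and the transcription activator Camta1 (1.13). Per3 was at 6.36, 4.63, 4.44 and 3.81 CPM in the shPCBP1 lines, 12.9, 14.3 and 11.9 in FAM3C KO, 4.94 and 3.70 in LIFR KO 1 and 2, 9.48 in LIFR KO 3 and 9.51 in the double KO. Smim1, whose shared difference was the highest, was less uniform, at 8.67, 4.07 and 10.4 CPM in FAM3C KO, 2.63 in LIFR KO 3 and 2.38 to 5.04 in shPCBP1. It and Arhgef16 were the 2 block members in which a FAM3C KO clone overlapped shPCBP1.

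The 58 chromosome 4 members before the block had medians of -0.01, -0.12 and 0.00 in the FAM3C KO clones. Rcc2, a regulator of mitosis, was at 283 to 324 CPM in shPCBP1 and 293, 298 and 305 in FAM3C KO, and Tardbp, the RNA-binding protein TDP-43, at 281 to 320 and 290, 318 and 308. Pgd, of the pentose phosphate pathway, was at 183 to 238 and 245, 213 and 233 CPM. The lowest shared differences of the stretch were also found before the block, for Padi1 (-1.48), a peptidylarginine deiminase, the neighbouring F-box genes Fbxo44 (-1.21) and Fbxo2 (-1.17), and the zinc finger gene Zfp268 (-0.73). Fbxo2 was at 10.2 to 12.0 CPM in shPCBP1, 5.27, 5.64 and 4.88 in FAM3C KO, 19 and 8.53 in LIFR KO 1 and 2, 2.66 in LIFR KO 3 and 4.22 in the double KO. Zfp268 also had the widest spread among the shPCBP1 lines of chromosome 4 (8.23, 22.1, 10.7 and 8.14 CPM). It belongs to a cluster of closely similar zinc finger genes, whose reads may be divided among copies in a way that is uncertain.

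On chromosome 8 the abundant members were lower in FAM3C KO by a similar proportion. Cnot1 (95719451 to 95807464), the scaffold of the CCR4-NOT deadenylase, was at 306 CPM in the unaltered line and 377, 378 and 392 in CT 1 to 3, at 264, 248 and 263 in FAM3C KO, at 379 and 397 in LIFR KO 1 and 2, at 270 in LIFR KO 3 and at 261 in the double KO, a FAM3C KO ratio of 0.715-fold. The unaltered line again lay between the CT clones and the 5 low lines. Got2 (95864134 to 95888547), the mitochondrial aspartate aminotransferase, was at 213, 261, 256 and 256 CPM in the shPCBP1 lines and 152, 161 and 163 in FAM3C KO (0.644-fold), with 253 and 173 in LIFR KO 1 and 2, 123 in LIFR KO 3 and 118 in the double KO. Calr, the endoplasmic reticulum chaperone calreticulin, was at 598, 550, 637 and 879 CPM in shPCBP1 and 468, 493 and 477 in FAM3C KO (0.732-fold).

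Other chromosome 8 members of the gene lists had like ratios. Nacc1 (0.715-fold in FAM3C KO), a BTB-domain transcription regulator, Vps35 (0.684-fold) of the retromer complex and Junb (0.744-fold) were all lower in every FAM3C KO clone than in every shPCBP1 line. The co-chaperone Dnaja2 was at 163, 181 and 169 CPM in FAM3C KO and 184 to 246 in shPCBP1, and the prostaglandin E receptor Ptger1 at 17.5, 14.7 and 15.6 and 23.1 to 29.8. The lowest shared differences were those of Mt2 (-1.32), Kifc3 (-1.26), a kinesin, Ndrg4 (-1.18) and the homeobox gene Irx5 (-1.17). Those of Sall1 (0.45), Inpp4b (0.30), Sap18b (-0.02) and Hook2 (-0.06) were the highest. Sall1, a zinc finger transcription factor, was at 31.2, 12.3, 43.9 and 3.13 CPM in the shPCBP1 lines, the widest spread of the chromosome 8 members, and at 20.1, 3.84 and 31.9 in FAM3C KO. Sap18b was the 1 block member on chromosome 8 with a mean FAM3C KO difference above 0 (0.03), and its sequence is close to that of Sap18 elsewhere in the genome, so its reads are uncertain.

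The 2 metallothionein genes, which encode cysteine-rich metal-binding proteins induced by zinc and other metals, are adjacent on chromosome 8 and stood lower than their neighbours. Mt1 (94179082 to 94180327) gave 113, 102, 127 and 114 CPM in shPCBP1, 67.6, 51.8 and 63.5 in FAM3C KO, 134 and 67.0 in LIFR KO 1 and 2, 38.0 in LIFR KO 3 and 45.2 in the double KO. Mt2 (94172664 to 94173568) was at 37.7, 33.7, 45.2 and 52.8 CPM, 22.7, 14.2 and 20.4, 42.9 and 22.1, 12.3, and 16.6, in the same order. The FAM3C KO ratios were 0.534-fold and 0.450-fold, against the block median of 0.691-fold. LIFR KO 2, which was near 0 in the block, was at -0.27 for Mt1 and -0.23 for Mt2 after GC correction. The promoters of both genes (RefSeq, GRCm38.p6, 250 bases before to 50 after the annotated start, plus strand) are shown because these genes differed both here and in the second dataset. Capitals mark the core of the metal response element, searched as TGCACNC and TGCGCNC on both strands. The Mt2 window ends at 94172667, close to the gene start given above, and its last bases were not found in a transcript of Mt2. Where its matches lie relative to the start of transcription is therefore uncertain.
Mt1, chr8:94178839-94179138: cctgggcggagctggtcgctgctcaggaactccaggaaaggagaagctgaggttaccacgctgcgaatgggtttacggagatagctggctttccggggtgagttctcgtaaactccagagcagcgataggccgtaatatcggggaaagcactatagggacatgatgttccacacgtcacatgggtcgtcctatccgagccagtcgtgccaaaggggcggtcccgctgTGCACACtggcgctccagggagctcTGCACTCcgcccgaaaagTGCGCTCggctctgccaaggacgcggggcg
Mt2, chr8:94172368-94172667: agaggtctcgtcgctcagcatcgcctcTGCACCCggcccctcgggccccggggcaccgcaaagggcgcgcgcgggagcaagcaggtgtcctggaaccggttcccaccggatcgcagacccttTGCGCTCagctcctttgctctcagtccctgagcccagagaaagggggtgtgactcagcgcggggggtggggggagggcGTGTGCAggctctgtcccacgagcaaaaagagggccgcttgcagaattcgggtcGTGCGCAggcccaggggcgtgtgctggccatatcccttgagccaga
The Mt1 window held 3 matches and the Mt2 window 4. Of 27025 RefSeq promoters, 25.6% held at least 1, as did 94 (36.2%) of the 260 members with a promoter there. Members had to reach 5 CPM and promoters at large did not, so these shares are of unlike sets. Their difference was not tested.

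On chromosome 17 the ratios were smaller than on chromosome 4. Birc6 (74528295 to 74703356), a large inhibitor of apoptosis, was at 496, 432, 420 and 504 CPM in the shPCBP1 lines, 594, 603 and 627 in FAM3C KO, 446 and 460 in LIFR KO 1 and 2, 698 in LIFR KO 3 and 668 in the double KO, a FAM3C KO ratio of 1.32-fold. Calm2 (87433412 to 87446935), 1 of the calmodulin genes, was at 161, 157, 149 and 171 CPM, 199, 203 and 227, 130 and 214, 343, and 310, in the same order, a ratio of 1.31-fold. LIFR KO 2 overlapped FAM3C KO for Calm2 as deposited, and its GC-corrected difference was 0.10. Eif2ak2 (78852564 to 78882573), the interferon-induced kinase PKR, was at 42.1, 34.2, 34.1 and 37.3 CPM in shPCBP1, 61.6, 51.2 and 57.7 in FAM3C KO, 31.0 and 33.6 in LIFR KO 1 and 2, 76.4 in LIFR KO 3 and 65.3 in the double KO (1.54-fold). Its high and low lines did not overlap.

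Crim1, a transmembrane binder of BMPs, was at 1.23-fold in FAM3C KO, Ltbp1, a binder of latent TGF-beta, at 1.30-fold, and the myosin light chain genes Myl12a and Myl12b at 1.27-fold and 1.30-fold. The highest shared differences were those of Cyp1b1 (2.27), a cytochrome P450 induced by aryl hydrocarbons, Cdc42ep3 (0.90), an effector of CDC42, Memo1 (0.84) and Rasgrp3 (0.82), a Ras activator. Cyp1b1 (79701537 to 79715061) gave 11, 3.20, 11.4 and 8.93 CPM in shPCBP1, the widest spread of the chromosome 17 members, at 33.9, 4.72 and 37.8 in FAM3C KO, at 2.47 and 9.03 in LIFR KO 1 and 2, at 41.8 in LIFR KO 3 and at 48.5 in the double KO. FAM3C KO 2 thus lay within the shPCBP1 range and the other 4 lines above it. Its promoter (minus strand) is shown because it had the largest shared difference of all members, with the xenobiotic response element core, searched as GCGTG on both strands, in capitals.
Cyp1b1, chr17:79715012-79715311: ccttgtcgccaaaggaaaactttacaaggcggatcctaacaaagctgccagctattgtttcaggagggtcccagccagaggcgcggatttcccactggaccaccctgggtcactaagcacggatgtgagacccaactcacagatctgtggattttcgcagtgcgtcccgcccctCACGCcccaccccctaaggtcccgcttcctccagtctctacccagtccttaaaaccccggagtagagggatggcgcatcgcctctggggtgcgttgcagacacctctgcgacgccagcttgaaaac
This window held 1 match. At least 1 was found in 32.5% of all promoters and in 147 (56.5%) of the 260 members, again unlike sets whose difference was not tested.

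The lowest shared differences on chromosome 17 were those of Gm49909 (-0.61), Msh6 (-0.27), Zfp36l2 (-0.24), which encodes an mRNA decay factor, and Epas1 (-0.16), which encodes HIF-2alpha. Gm49909 overlaps Myl12a and Myl12b, so reads of these genes may be divided between them in a way that is uncertain. It was at 2.93 to 10.3 CPM in shPCBP1 and at 0.0439 in LIFR KO 2, 0.0476 in LIFR KO 3 and 0.379 in the double KO. Dlgap1 was the 1 chromosome 17 block member with a mean FAM3C KO difference below 0 (-0.04). The 7 members beyond the block had medians of -0.12, -0.12 and 0.01 in the FAM3C KO clones.

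**Figure D3:**
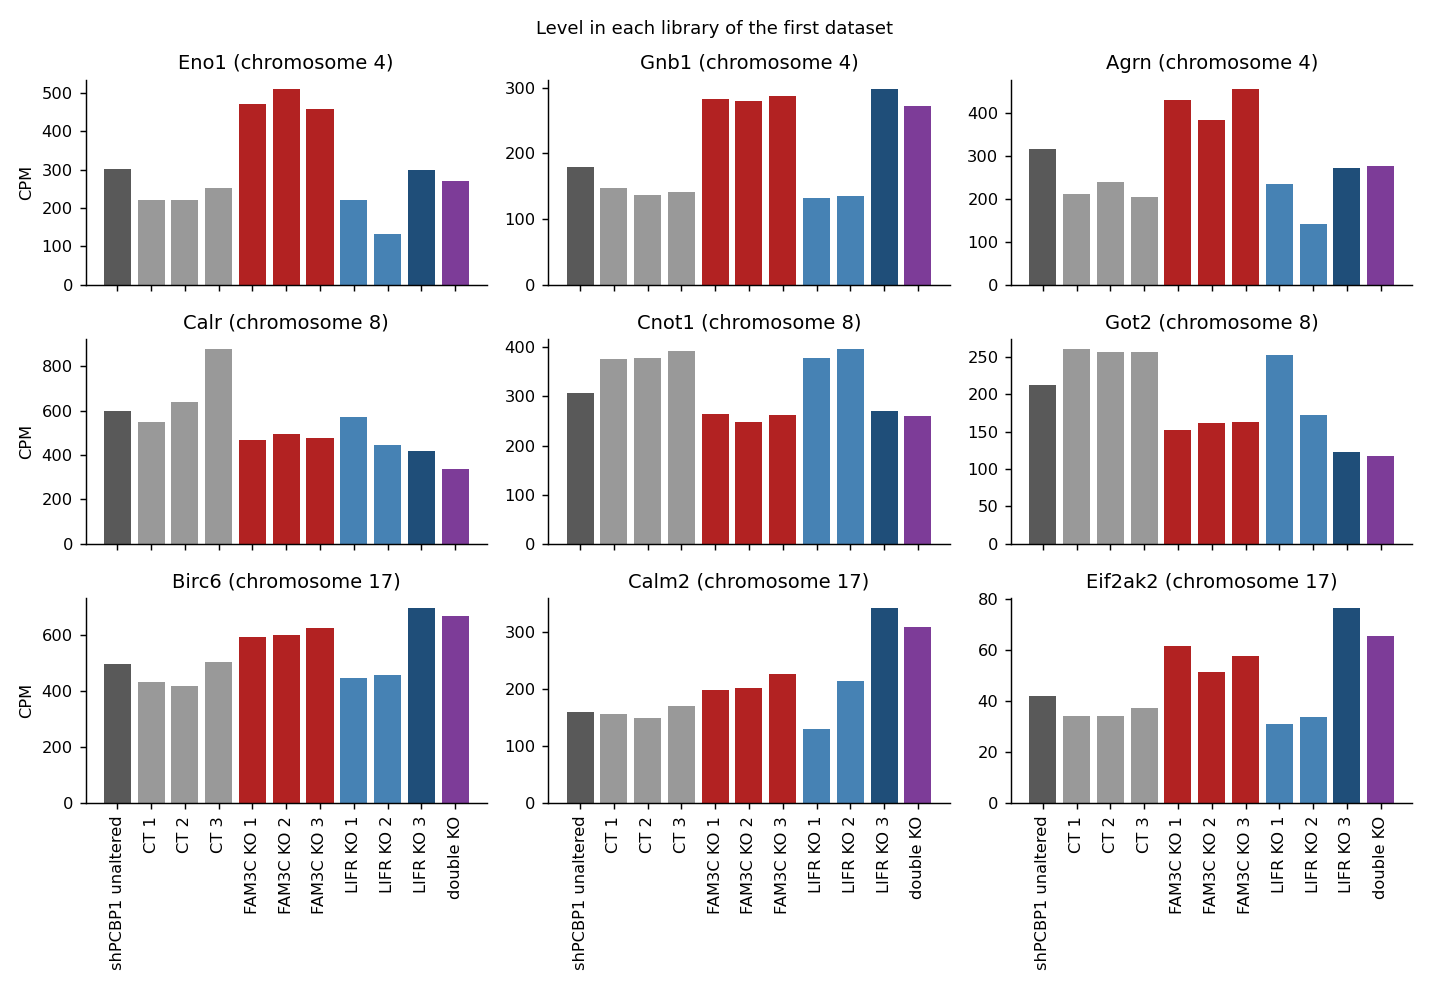
CPM of 3 abundant block members on each of chromosomes 4, 8 and 17 in each of the 11 libraries of the first dataset, with 1 bar per library. Eno1, Gnb1 and Agrn are highest in FAM3C KO or LIFR KO 3, Cnot1 and Got2 are lowest in FAM3C KO, LIFR KO 3 and the double KO, and Birc6, Calm2 and Eif2ak2 are highest in LIFR KO 3.

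The sign of a block member in FAM3C KO was set by how the stretches and edges were chosen, so the lists are described here by their medians only. Of 14 block members that act in DNA replication, repair and cell division, the 3 on chromosome 4 and the 4 on chromosome 17 had median FAM3C KO differences of 0.76 and 0.50, and the 7 on chromosome 8 of -0.69. Among transcription and chromatin regulators the 8, 13 and 11 block members on chromosomes 4, 8 and 17 had medians of 0.91, -0.48 and 0.40. Among metabolic enzymes and mitochondrial proteins the 12, 14 and 9 had medians of 0.85, -0.52 and 0.52. Kinases, phosphatases and small GTPases (7, 12 and 18 members) had medians of 0.89, -0.48 and 0.53, genes of the cytoskeleton and membrane traffic (2, 7 and 12) of 0.86, -0.55 and 0.39, and genes of the matrix, adhesion and secretion (4, 3 and 5) of 0.82, -0.43 and 0.38. Ubiquitin, chaperone and ER stress genes (3, 13 and 1) had medians of 0.88, -0.49 and 0.38. The 2 cytokine and immune genes on chromosome 8 were at a median of -0.72 and the 1 on chromosome 17, Eif2ak2, at 0.62. Over all 249 block members 2 had the sign opposite to their block.

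The first comparison with a test asked whether the members differ in LIFR KO 1 and 2, whose values did not choose the stretches, from the 4 shPCBP1 lines, which were the baseline of the choice. Few did. Of the 314 members, 1 was higher and 7 were lower at an adjusted p under 0.07, the cutoff of the study (limma, Benjamini-Hochberg over 12599 genes), where 1.00% of all genes tested were higher and 4.68% lower. The fit also held the 3 FAM3C KO clones. The member that rose was Dhrs3 (a retinal reductase), at 24.4 and 19.3 CPM against 9.57 to 14.3 in shPCBP1 (log2 difference 0.95 ± 0.251 SE, adjusted p = 0.0674). Those that fell most were Zfp979 (-2.19 ± 0.428, adjusted p = 0.0268), Fndc10 (-1.24 ± 0.21, adjusted p = 0.0177) and Tnfrsf1b (-0.92 ± 0.178, adjusted p = 0.026), which encodes a TNF receptor. After GC correction Fndc10 was at -0.67 and was no longer called (adjusted p = 0.118 in limma), and without LIFR KO 2 neither Fndc10 nor Tnfrsf1b was called. Dhrs3 was not called without either LIFR KO clone (limma, adjusted p = 0.0719 without LIFR KO 1 and 0.156 without LIFR KO 2). Zfp979 was at 1.93 and 6.07 CPM in LIFR KO 1 and 2 against 12.0 to 22.6 in shPCBP1, while LIFR KO 3 was at 78.9. It lies in the zinc finger cluster named above. Errfi1, an inhibitor of EGF receptor signalling, fell by 0.60 (adjusted p = 0.0305), Zfp36l2 by 0.77 (0.042), Lclat1 by 0.59 (0.0674) and Fblim1 by 0.49 (0.0581).

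By chromosome, 6 of the 8 called members lay on chromosome 4, 2 of them in the block, none on chromosome 8 and 2 on chromosome 17. Of 452 other genes of chromosome 8, 12 were called. In limma, 7 of the 110 chromosome 8 members had an unadjusted p under 0.05. So did 93 of those 452 genes and 2757 of all 12599. The median difference was -0.32, -0.16 and -0.09 on chromosomes 4, 8 and 17, against -0.12 over all genes. On chromosomes 4 and 8 it rested on LIFR KO 2, being -0.03 and 0.04 after GC correction, -0.64 and -0.37 without LIFR KO 1, and -0.02 and 0.04 without LIFR KO 2. The count was 14 after GC correction, 5 higher and 9 lower, and the share of all genes called after this correction is not given. Leaving out LIFR KO 1 or 2 left 1 library in the group, so nothing is read from the counts of those fits.

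The second comparison with a test asked how the same genes differ between shPCBP1 and shSCR in the second dataset, whose 4 samples had no part in the choice. The chromosome 4 block was lower in shPCBP1 and the chromosome 8 members were somewhat higher, each in the direction opposite to that of the 5 KO lines, and the chromosome 17 block did not stand off from 0. Genes were called at an adjusted p under 0.07 (limma, over 11384 genes) with a change of at least 1.5-fold, which 16.0% of all genes passed as higher and 15.1% as lower, with a median log2 fold change of 0.02. Of 57 chromosome 4 block members tested, 27 fell and 3 rose, with a median of -0.55, and 51 of the 57 had a value below 0. Of the 56 members before the block, 6 fell and 13 rose (median 0.16), and of the other 493 genes of the chromosome 29 fell and 105 rose (median 0.24). By sample, the block median was -0.53 and -0.57 in the 2 shPCBP1 samples. The rest of the chromosome was not at one level. In bins of 5 Mb by listed start, medians before the block ran from -0.39 to 0.89, with 0.55 to 0.89 in the bins starting at 0 to 30 Mb. Those starting at 150 and 155 Mb, in the block, were at -0.67 and -0.54.

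On chromosome 8, 26 of 110 members rose and 6 fell (median 0.29, with 0.29 and 0.28 by sample), and of 418 genes outside the block 62 rose and 35 fell (median 0.14). The bins of 5 Mb that held the members had medians of 0.16 to 0.35. Bins outside the block ran from -0.37 to 1.07, with 0.28 from 10 Mb (28 genes) and 0.32 from 125 Mb (21 genes). A rise of this size was thus not particular to the block. On chromosome 17, 13 of 79 block members rose and 8 fell (median 0.00), and of 369 genes outside the block 26 rose and 62 fell (median -0.10). Of the 7 members beyond the block none passed in limma at these cutoffs. An adjusted p under 0.07 alone was reached by 4 of them and by 9123 of all 11384 genes. After GC correction the medians were -0.60, 0.29 and -0.01 for the block members, and the fold changes of all genes followed GC content little (Spearman's rho of 0.08). How far this 4-sample comparison and the first dataset bear on each other was not tested, and the control cells of one are not in the other.

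**Figure D4:**
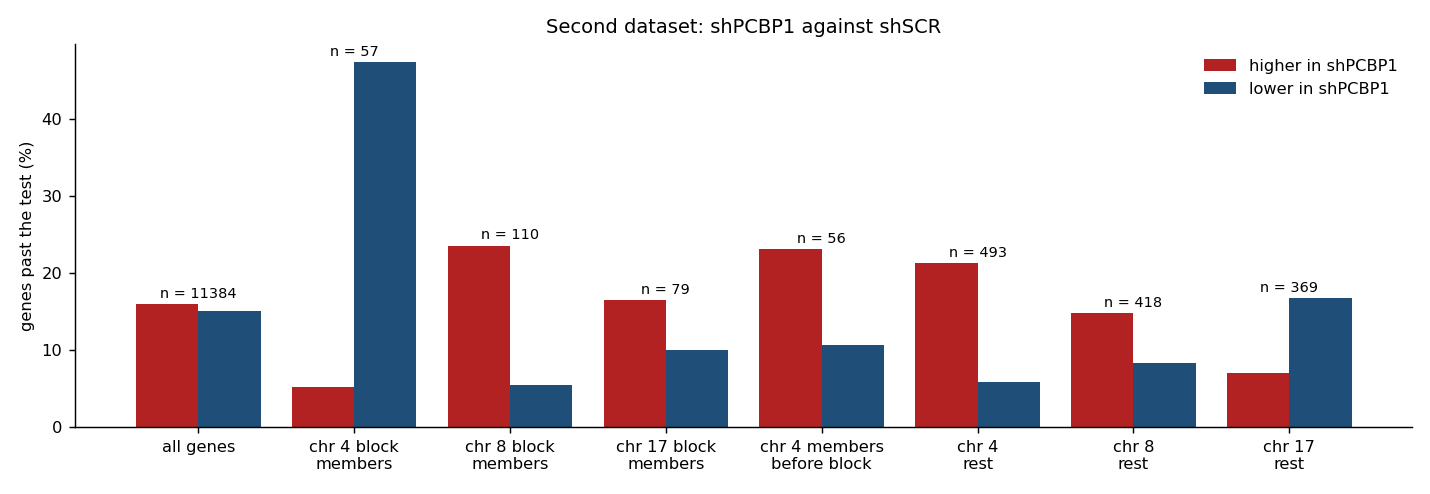
Percent of genes called higher (red) or lower (blue) in shPCBP1 than in shSCR (adjusted p under 0.07 and at least 1.5-fold), for all genes, the members inside the blocks, the chromosome 4 members before the block and the rest of each chromosome. The chromosome 4 block stands out with 47.4% lower and 5.26% higher, beside 15.1% and 16.0% of all genes.

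In the second dataset the largest decreases on chromosome 4 lay in the block and the largest increases before it. Smim1 fell (14.2 and 13.3 CPM in shSCR, 3.21 and 2.69 in shPCBP1, log2 fold change -2.19 ± 0.0973 SE, adjusted p = 3.85e-09), as did Plekhn1 (-2.16 ± 0.0681, adjusted p = 2.64e-10) and Agrn (406 and 409 against 121 and 118 CPM, -1.77 ± 0.0223, adjusted p = 4.46e-13). Per3 fell as well (log2 fold change -1.70, adjusted p = 1.29e-08, to 2.89 and 2.94 CPM), and Eno1 from 336 and 320 to 183 and 174 (adjusted p = 5.04e-10). These 5 genes were lower in shPCBP1 than in shSCR and higher in FAM3C KO than in shPCBP1. Gnb1 was lower by 0.54 (adjusted p = 4.34e-08), short of 1.5-fold. Before the block, the largest increases were those of Padi1 (3.16 and 3.21 against 31.4 and 31.5 CPM, log2 fold change 3.26) and the zinc finger genes Zfp991 (2.67) and Zfp992 (1.78).

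On chromosome 8 the metallothioneins rose, Mt2 from 1.23 and 0.993 to 23.8 and 21.9 CPM (log2 fold change 4.25 ± 0.109, adjusted p = 5.67e-11) and Mt1 from 17.8 and 18.9 to 65.7 and 62.6 (1.80 ± 0.0417, adjusted p = 2.66e-11). Gnao1, a G protein alpha subunit, was at 0.0355 and 0.0755 CPM in shSCR and 21.3 and 22.5 in shPCBP1. Tbc1d9 was listed at 0.0001, the value the file gives in place of 0, in both shSCR samples and at 7.69 and 8.10 in shPCBP1. The largest decreases were those of Hook2 (-1.35), Cx3cl1 (-1.35), a chemokine, and the adhesion receptor Adgrg1 (-1.12). Got2 rose by 1.53-fold, Calr was at 1.48-fold and Cnot1 at 1.07-fold.

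On chromosome 17, Cyp1b1 rose from 0.443 and 0.264 to 8.08 and 7.74 CPM (log2 fold change 4.17 ± 0.178, adjusted p = 2.78e-09), Lbh, a transcription cofactor, from 4.21 and 4.15 to 23.9 and 23.7 (2.48) and Rasgrp3 from 2.50 and 2.13 to 11.2 and 11.9 (2.28). Myl12b (-0.99), Epas1 (-0.79) and Ankrd12 (-0.72) fell most. Myl12a, the neighbour of Myl12b, was higher by 0.49 (limma, adjusted p = 2.26e-08), so the listed values of the adjacent light chain genes went opposite ways. Gm49909 overlaps both, and how their reads were divided is uncertain. Msh6, beyond the block, was at 0.974-fold.

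By list, both metallothioneins rose, where 16.0% of all genes rose and 15.1% fell. Among the other lists, the number of members that rose and fell was 2 and 3 of 21 for DNA replication and repair, 4 and 8 of 35 for transcription and chromatin regulators, 5 and 7 of 43 for metabolic and mitochondrial genes, 8 and 4 of 42 for kinases, phosphatases and GTPases, 4 and 2 of 14 for matrix and secreted proteins, 3 and 4 of 25 for cytoskeleton and traffic, 1 and 1 of 6 for cytokines and immune genes, and 2 and 1 of 23 for ubiquitin and chaperones. Their medians ran from -0.19 to 0.21, beside 0.02 for all genes. In LIFR KO 1 and 2, at most 1 member of any list passed in either direction.

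**Figure D5:**
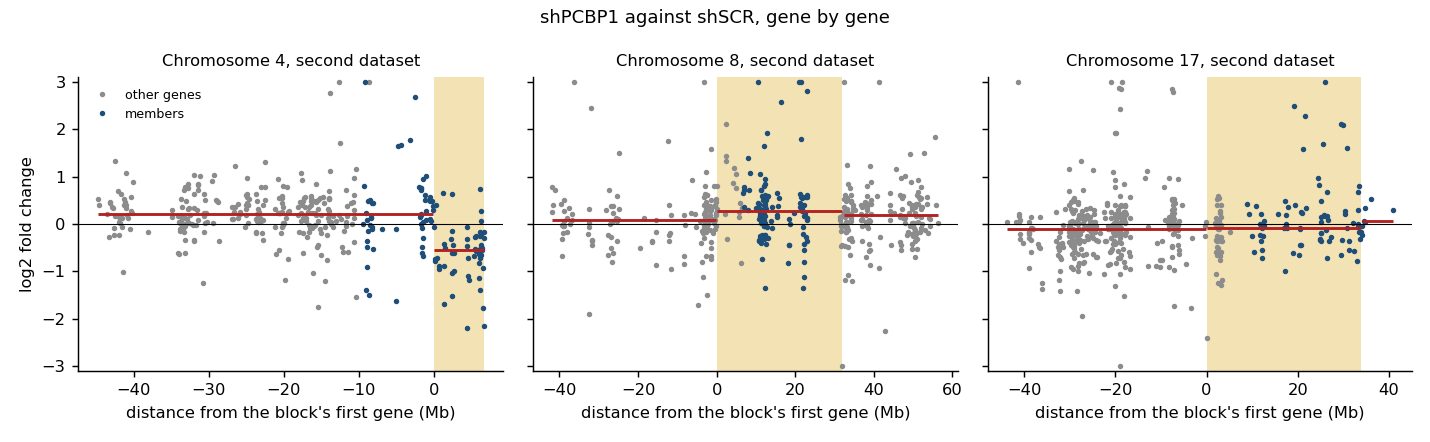
Log2 fold change of shPCBP1 against shSCR in the second dataset for genes at 5 CPM or more in the first, against the distance in Mb from the block's first gene. Genes far before the block are not drawn and are not in the median before it. Members are blue, other genes grey, the block found in the FAM3C KO clones is shaded, red lines are medians before, in and after it, and values beyond 3 are drawn at 3. The median falls at the start of the chromosome 4 block and changes less on chromosomes 8 and 17.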

How the data were processed

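RNA-Seq of rRNA-depleted, strand-specific libraries (paired-end reads) was processed by the authors with Bowtie2, Partek Flow and DESeq2 on GRCm38, and normalized CPM per gene and sample were deposited, with a small value in place of 0. The second file also holds the authors' group means and fold changes, which were not used. Low values of the first dataset were multiples of a step per library that implies 16031859 to 46901675 reads, but only 83.2% to 86.3% of values under 5 CPM were whole multiples (within 0.05), and read counts were not recovered for a count test. Depth is unknown for the second dataset. Gene starts in the first dataset do not match GRCm38, so the limits of the stretches are those of the file and coordinates of named genes are from GENCODE M21 (GRCm38), which holds 313 of the 314 members. Promoters are from RefSeq.

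Values were transformed to log2(CPM + 0.1), a scale that understates changes of low genes. The model was limma (version 3.58.1, R 4.3.3) with a mean-variance trend, for all genes averaging 0.5 CPM or more, with Benjamini-Hochberg adjustment over all of them. LIFR KO 3 and the double KO were left out of the fit for LIFR KO 1 and 2. The fits were tested on simulated data. GC correction subtracted a loess curve (span 0.3) of each library's difference on transcript GC content. Block edges were those of the best-fitting step (Bayesian information criterion) in the mean FAM3C KO difference.

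The members and gene lists were chosen with earlier results of these data known. Named genes were the targeted genes, the 4 highest and 4 lowest shared differences per chromosome, the 3 largest changes each way per chromosome in the second dataset and over all members in LIFR KO 1 and 2, up to 3 abundant members per list, genes at each limit, and the widest shPCBP1 spread per chromosome. Genes at block edges, Arhgef16, Sap18b, Dlgap1, Errfi1, Lclat1 and Fblim1 were added after their values were seen, as were the genes whose promoters are shown. Some results are not reported here.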

Additional observations from a re-analysis of the deposited data

Results flagged for a closer look

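Of 64 values tested among the 4 shPCBP1 lines (61 named members and the 3 stretch medians), 5 had 1 line set apart by Dixon's ratio, where chance gives about 1 in 20. In Myl12b (ratio 0.949), Got2 (0.912) and Cnot1 (0.849) the unaltered line was the one apart, at 92.0, 213 and 306 CPM. In Cdc42ep3 (0.843) it was CT 1, at 5.09 CPM, and in Zfp991 (0.839) CT 3, at 9.62 CPM.

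Lbh was above the shPCBP1 mean in every FAM3C KO clone and below it in every LIFR KO clone, the group means differing by 1.00 on the log2 scale. This difference was not tested. After GC correction LIFR KO 3 was at 0.34.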

How the results depend on the processing

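The count of 8 members called in LIFR KO 1 and 2 was 14 after GC correction, 5 at an adjusted p under 0.05 and 2 to 179 with each library left out, with 2 without the unaltered line, 3 without CT 2 or CT 3, 5 without FAM3C KO 1 or 3 or LIFR KO 2, and 179 without LIFR KO 1. The fits without LIFR KO 1 or without LIFR KO 2 left 1 library in the group, so nothing is read from their counts. Without LIFR KO 1 that library was LIFR KO 2, whose differences followed GC content (Spearman's rho of -0.76). With the clone number as a replicate block the count of members was 0 (2 with GC correction as well). The share of all genes called is not given for any of these alternatives. Same-numbered libraries deviated together with correlations of -0.177 to 0.154 (0.0512 in the second dataset), so the numbers do not pair the samples. The second dataset's count of 102 became 257 without the fold requirement, where 9123 of all 11384 genes were called. With the fold requirement the count was 102 under the replicate block.

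The shared median was 0.48, -0.59 and 0.45 on chromosomes 4, 8 and 17. On chromosome 4 it was 0.78 for block members alone, and 0.31, 0.37 and 0.30 without FAM3C KO 1, 2 or 3. On chromosome 17 it was 0.51 after median-ratio rescaling and 0.42 to 0.51 with a library left out. In LIFR KO 1 and 2 the medians of -0.32 and -0.16 on chromosomes 4 and 8 were -0.03 and 0.04 after GC correction, and -0.64 to -0.02 and -0.37 to 0.04 with a library left out. The chromosome 17 median in LIFR KO 1 and 2, -0.09, was 0.04 after rescaling and -0.12 to -0.03 with a library left out. In the second dataset the chromosome 4 median of -0.22 was -0.23 after rescaling, -0.20 with a pseudocount of 1 CPM, -0.27 after GC correction, -0.55 for block members and -0.21 to -0.19 with a sample left out. The chromosome 8 median of 0.29 was 0.28, 0.27 and, with a sample left out, 0.25 to 0.32, and that on chromosome 17 was -0.04 to 0.01. The GC correction there and the restriction to block members were chosen after seeing the data. The causes were not tested. Of the 292 alternatives for single named genes, 272 kept the call, 20 lost it and none changed direction. All 20 losses were in the comparison of LIFR KO 1 and 2, for Dhrs3, Zfp979, Fndc10 and Tnfrsf1b. None was in the second dataset, which gave most of the alternatives. Dhrs3 made up 12 of the 20 losses.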
